A study of Mus musculus with 8 samples.

Results

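The 9 genes described here carry the signal of insulin and growth factors through phosphoinositide 3-kinase (PI3K), Akt and the FOXO transcription factors. They were set as a list of symbols: the catalytic PI3K subunits Pik3ca and Pik3cb, the regulatory subunit Pik3r1, the kinases Pdpk1, Akt1, Akt2 and Gsk3b, and the transcription factors Foxo1 and Foxo3. Each was read from the probe set that the platform annotation gives to that symbol alone, taking the one with the highest mean over 8 arrays. All 9 were measured, among 18782 genes in all, 8 with 1 probe set and Akt2 with 2. The samples were thoracic perivascular fat, the fat around the thoracic aorta, of mice labelled RictoraP2KO, and as controls the same tissue of Rictorfl/fl mice, with 4 arrays in each group. All mice were male, 17 to 22 weeks old, without food overnight and killed at 9 am. The name RictoraP2KO stands for deletion through the aP2 (Fabp4) promoter, which acts in fat cells, and the series title places the deletion in brain as well as in fat. The tissue was taken whole, so RNA of cells other than fat cells was part of each sample. Nothing in the labels says that each array is a separate animal, so a p-value here speaks only of the spread among these samples.

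In this pathway PI3K, a catalytic subunit held by a regulatory one, makes a membrane lipid that draws Pdpk1 and Akt together. Pdpk1 and mTOR complex 2, which needs Rictor, each phosphorylate Akt at a different site. Active Akt then phosphorylates FOXO factors, which leave the nucleus, and GSK3, which is inhibited, and in fat cells Akt2 is known for its role in insulin-stimulated glucose uptake. These steps act on proteins, and an array reads messenger RNA only.

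No gene of the 9 passed the test between the groups. With limma across 28371 probe sets, 0 of 9 had an adjusted p under 0.05, where 0.00352% of all probe sets did. Also 0 of 9 had an unadjusted p under 0.05, where 6.48% of all genes did. In 0 of 9 were the arrays of one group all above those of the other, where 3.57% of genes showed this. Of the 9 differences, 6 lay above 0 and 3 below, with a median of 0.03 on the log2 scale, against -0.01 for all genes. The adjusted p-values ran from 0.7 to 0.999. The largest differences belonged to Pik3r1 and Foxo1, which were also the genes with the widest spread among arrays of one group.

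Values are log2 RMA signals, and each difference is the RictoraP2KO mean less the control mean, in log2 units, with its standard error (SE) or 95% interval. The Rictor signal itself read 6.80, 6.66, 6.60 and 6.68 in the arrays labelled RictoraP2KO (replicates 1 to 4), against 6.49, 6.56, 6.49 and 6.61 in the control arrays. It was thus not lower under the knockout label, and its mean was higher there (difference 0.14, SE 0.063, 95% interval 0.0017 to 0.29). The limma unadjusted p was 0.0479 and the adjusted p 0.685, and the groups overlapped. The sources used here do not say where the probes lie relative to the deleted exons. Every direction below rests on the array labels. Fat cell markers were among the brightest signals on each array, with Adipoq between 10.85 and 11.08 and the brown fat gene Ucp1 between 11.32 and 12.01. In 3 arrays markers of another tissue stood apart from the rest. Of centred list means, skeletal muscle markers (13 of 13 measured) stood at 1.305 in RictoraP2KO replicate 2 and at most -0.09 elsewhere. Lung markers (10 of 10) stood at 2.18 in control replicate 2 and neuron markers (13 of 14) at 1.27 in control replicate 3, with at most -0.22 and -0.10 in the other arrays. B cell markers (10 of 11) also stood highest in RictoraP2KO replicate 2, at 0.835. Differences without these 3 arrays are therefore given as well. Cardiac muscle markers (9 of 10) varied across the arrays, from -1.15 to 1.41 in RictoraP2KO arrays and from -0.84 to 0.65 in controls. Without the 3 arrays they still ran from -1.15 in RictoraP2KO replicate 1 to 0.29 in control replicate 1. That omission thus leaves the cardiac muscle signal uneven.

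**Figure D1:**
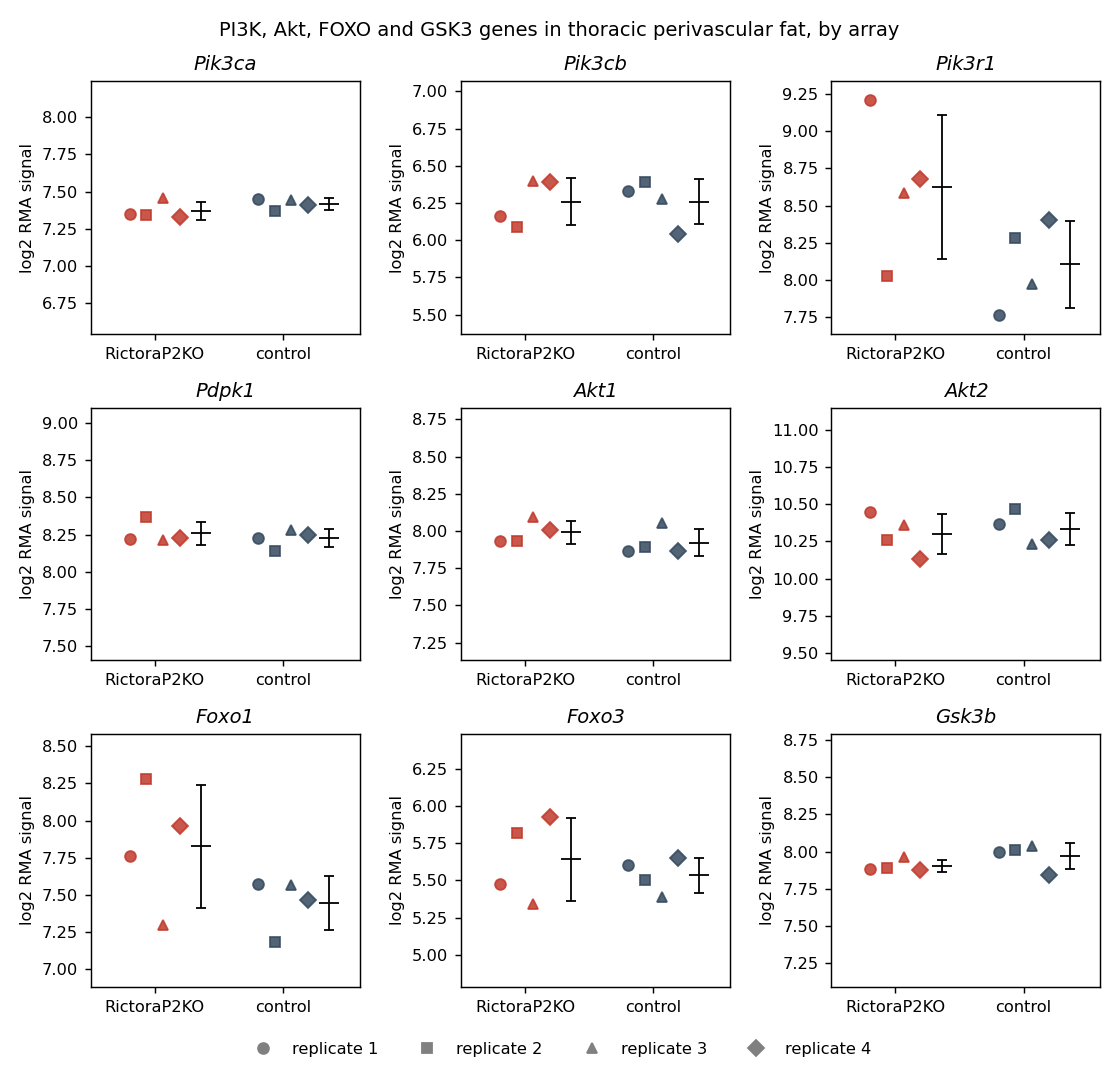
Log2 RMA signal of each of the 9 genes (y axis, the same span of 1.7 in every panel) in the 4 RictoraP2KO arrays (left, red) and the 4 control arrays (right, blue). Symbols mark the replicate number and the bar beside each group is its mean ± SD (n = 4), and in every panel the groups overlap, with Pik3r1 and Foxo1 the most spread.

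Both catalytic subunits of PI3K were measured at almost equal levels in the groups. Pik3ca, which encodes p110 alpha, the catalytic subunit that insulin mainly uses, read 7.35, 7.34, 7.46 and 7.33 in the RictoraP2KO arrays, against 7.45, 7.37, 7.44 and 7.41 in the controls. All 8 values lay within 0.13 of each other, and the groups overlapped. The difference was -0.05 (SE 0.055, limma adjusted p = 0.873), which as a percentage is -3.14%, with an interval from -11.2% to 5.65%. Pik3cb, which encodes p110 beta, a catalytic subunit that G protein-coupled receptors also engage, read 6.17, 6.09, 6.40 and 6.39 in the RictoraP2KO arrays. The control arrays read 6.33, 6.39, 6.28 and 6.04. Both groups held high and low arrays, and the means were 6.26 ± 0.16 and 6.26 ± 0.15 (SD, n = 4 each), with an interval of the difference from -14.8% to 17.4%.

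Pik3r1, which encodes the regulatory subunits that hold the catalytic one and bind insulin receptor substrates, had the largest difference of the 9. Its signal was 9.21, 8.03, 8.58 and 8.68 in the RictoraP2KO arrays, against 7.76, 8.28, 7.97 and 8.40 in the control arrays. The groups overlapped: replicates 1, 3 and 4 of RictoraP2KO lay above every control, and replicate 2 lay below 2 of the 4 controls. The mean was 8.63 ± 0.48 in RictoraP2KO arrays and 8.11 ± 0.29 in control arrays (SD, n = 4 each). The difference of 0.52 (SE 0.237) did not pass (limma adjusted p = 0.7, unadjusted p = 0.0567). It corresponds to 1.43-fold, with an interval from 0.99 to 2.08-fold. Without RictoraP2KO replicate 1 it was 0.33, and without RictoraP2KO replicate 2 it was 0.72. Without the 3 arrays of mixed tissue signal it was 0.74 (limma adjusted p = 0.969). In whole tissue a higher signal per cell and a larger share of cells that express the gene cannot be told apart.

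The single Pik3r1 probe set is annotated to both curated RefSeq transcripts of the gene, so the long form p85 alpha and the short forms cannot be separated in these data. RefSeq lists 2 start sites for it, 75587 bases apart. The 250 bases before each start are shown (RefSeq, GRCm38.p6, minus strand). The sources used here do not say where the probes lie in the transcripts, so the part of each start in this signal is unknown. A FOXO element, searched as TGTTTAC or GTAAACA on either strand, would be in capitals, and neither window holds one.
Pik3r1 distal start, chr13:101768218-101768467: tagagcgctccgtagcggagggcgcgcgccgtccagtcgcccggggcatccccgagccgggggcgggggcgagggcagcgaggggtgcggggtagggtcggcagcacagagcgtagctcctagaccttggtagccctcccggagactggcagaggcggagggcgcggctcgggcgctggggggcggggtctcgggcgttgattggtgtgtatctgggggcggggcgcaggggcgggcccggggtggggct
Pik3r1 internal start, chr13:101692631-101692880: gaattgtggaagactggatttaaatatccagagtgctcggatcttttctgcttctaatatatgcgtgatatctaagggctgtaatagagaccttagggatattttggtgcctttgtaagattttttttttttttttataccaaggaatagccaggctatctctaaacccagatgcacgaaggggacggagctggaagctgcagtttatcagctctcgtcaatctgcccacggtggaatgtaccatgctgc
The distal window has 76.4% G and C with 30 CpG dinucleotides, and the internal window 42.4% with 6.

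Pdpk1, which encodes the kinase PDK1 that phosphorylates the activation loop of Akt, read 8.22, 8.37, 8.21 and 8.23 in the RictoraP2KO arrays, against 8.23, 8.14, 8.28 and 8.25 in the controls. One RictoraP2KO array, replicate 2, lay above all other arrays, and the other 3 lay within the span of the controls. The difference was 0.03 (SE 0.061, limma adjusted p = 0.93), or 2.30% with an interval from -7.13% to 12.7%. Without RictoraP2KO replicate 2 it was -0.0043.

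Neither Akt gene differed beyond the spread between arrays. Akt1, the broadly expressed isoform, read 7.93, 7.93, 8.09 and 8.01 in the RictoraP2KO arrays and 7.87, 7.89, 8.06 and 7.87 in the control arrays. Replicate 3 was the highest array of both groups, and without control replicate 3 the RictoraP2KO arrays all lay above the controls. The difference was 0.07 (SE 0.068, limma adjusted p = 0.845), or 4.99% with an interval from -5.64% to 16.8%. Akt2, the isoform tied to insulin action in fat, read 10.45, 10.26, 10.36 and 10.13 in RictoraP2KO arrays, against 10.37, 10.47, 10.23 and 10.26 in controls. High and low arrays occurred in both groups, and the difference was -0.03 (SE 0.086, limma adjusted p = 0.956), with an interval from -14.6% to 11.98%. The second Akt2 probe set, annotated to the same pair of curated transcripts, followed the first closely (Pearson r = 0.967 over 8 arrays, a description) and lay 0.07 to 0.20 below it. Its difference was -0.10 (SE 0.096, limma adjusted p = 0.849).

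The 9 genes have 15 start sites in the RefSeq table, and 1 of the 250-base windows before them held the FOXO element, against 3.17% of 32851 windows of all genes. It lies before a start of Akt1 and is shown in capitals as the only match among the 9 genes, which says nothing of FOXO binding there.
Akt1, chr12:112675012-112675071, minus strand: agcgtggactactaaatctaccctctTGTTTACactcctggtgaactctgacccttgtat

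Foxo1, the main FOXO factor of insulin-responsive tissues, was the other gene with a large and uneven difference. Its signal was 7.76, 8.28, 7.30 and 7.96 in the RictoraP2KO arrays, against 7.57, 7.18, 7.56 and 7.47 in the controls. Replicates 1, 2 and 4 of RictoraP2KO lay above every control, while replicate 3 lay below 3 of the 4. The mean was 7.83 ± 0.41 in RictoraP2KO arrays and 7.45 ± 0.18 in control arrays (SD, n = 4 each), a difference of 0.38 (SE 0.192) that did not pass (limma adjusted p = 0.732, unadjusted p = 0.0801). As a fold it was 1.30, with an interval from 0.96 to 1.76. The highest array, RictoraP2KO replicate 2, is the one with skeletal muscle and B cell signal, and the part of that signal in the Foxo1 difference was not tested. Without this array the difference was 0.23 (SE 0.166), and without all 3 arrays of mixed signal 0.15 (SE 0.199, limma adjusted p = 0.969). Without RictoraP2KO replicate 3 it was 0.56 (SE 0.143), at an unadjusted p of 0.00494 and a limma adjusted p of 0.431.

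Foxo3, the paralog that Akt also phosphorylates, read 5.47, 5.82, 5.34 and 5.93 in the RictoraP2KO arrays and 5.60, 5.50, 5.39 and 5.65 in the controls. RictoraP2KO arrays were both the highest and the lowest of the 8, and all 4 controls lay between them. The difference was 0.10 (SE 0.133, limma adjusted p = 0.882), with an interval from -12.8% to 32.6%. Without the 3 arrays it was -0.05, and without RictoraP2KO replicate 4 it was 0.0091. Its probe set is annotated to a single cDNA clone and to no curated RefSeq transcript.

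Gsk3b, which encodes the beta form of glycogen synthase kinase 3, read 7.88, 7.89, 7.96 and 7.88 in RictoraP2KO arrays, against 7.996, 8.01, 8.04 and 7.84 in controls. In 3 of 4 controls the signal exceeded every RictoraP2KO array, and control replicate 4 was the lowest of all. The difference was -0.07 (SE 0.062, limma adjusted p = 0.836), or -4.69% with an interval from -13.5% to 5.04%.

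**Figure D2:**
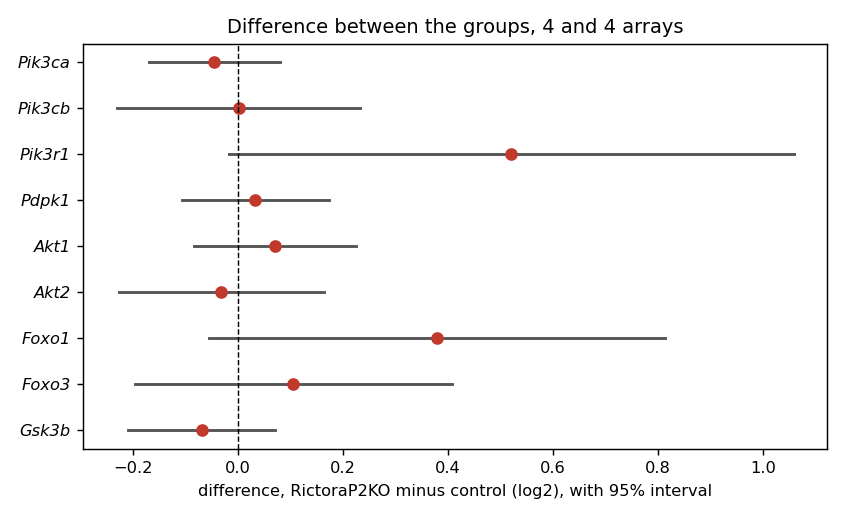
Difference between the groups for each gene (x axis, RictoraP2KO minus control, log2) with its 95% interval from limma, 4 and 4 arrays. Every interval includes 0, and those of Pik3r1 (-0.02 to 1.06) and Foxo1 (-0.06 to 0.81) are the widest.

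The level of one probe set cannot be set against that of another, since probes differ in brightness, so the arrays give no order of abundance between isoforms. Each mean can be placed among all probe sets of the array. All 9 lay above the median, from the 68.6th percentile for Foxo3 and the 76.1st for Pik3cb to the 93.1st for Pik3r1 and the 98.5th for Akt2. What can be tested is whether the log2 difference between isoforms within an array changed between the groups. Akt1 minus Akt2 averaged -2.31 ± 0.16 in RictoraP2KO arrays and -2.41 ± 0.18 in control arrays (SD, n = 4 each), a change of 0.10 (95% interval -0.19 to 0.40; exact two-sided permutation p = 0.429). Pik3ca minus Pik3cb averaged 1.11 ± 0.14 in RictoraP2KO arrays and 1.16 ± 0.16 in control arrays (exact permutation p = 0.657). Foxo1 minus Foxo3 averaged 2.19 ± 0.23 in RictoraP2KO arrays and 1.91 ± 0.21 in control arrays, a change of 0.27 with an interval from -0.11 to 0.66 (exact permutation p = 0.171). Pik3r1 minus Pik3ca, the regulatory against a catalytic subunit, averaged 1.25 ± 0.49 in RictoraP2KO arrays and 0.69 ± 0.32 in controls, a change of 0.57 with an interval from -0.15 to 1.28 (exact permutation p = 0.114). Against Pik3cb the change was 0.52 (exact permutation p = 0.171). Without RictoraP2KO replicate 1 these last changes were 0.37 and 0.29. Of these 5 ratios 0 passed after Benjamini-Hochberg adjustment over the 5 (lowest adjusted p = 0.285 in the exact test) and 0 were under 0.05 before it. The smallest p that 4 against 4 arrays allow is 0.0286.

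The genes differed widely in how steady they were between arrays of one group. The pooled SD within groups was 0.05 for Pik3ca, which places it at the 1.80th percentile of 10408 genes with a mean above the array median. Pdpk1 (0.07), Gsk3b (0.07) and Akt1 (0.08) lay at percentiles 5.44, 5.71 and 11.3. Akt2 (0.12), Pik3cb (0.16) and Foxo3 (0.21) were nearer the middle, where the median SD was 0.16. Pik3r1 (0.40) and Foxo1 (0.32) lay at percentiles 94.4 and 89.3. By group, the SD of Pik3r1 was 0.48 in RictoraP2KO arrays and 0.29 in control arrays, and that of Foxo1 0.41 in RictoraP2KO arrays and 0.18 in control arrays. For Pik3ca, Pdpk1, Gsk3b and Akt1 it was at most 0.08 in RictoraP2KO arrays and at most 0.09 in control arrays. No test was made of this order.

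**Figure D3:**
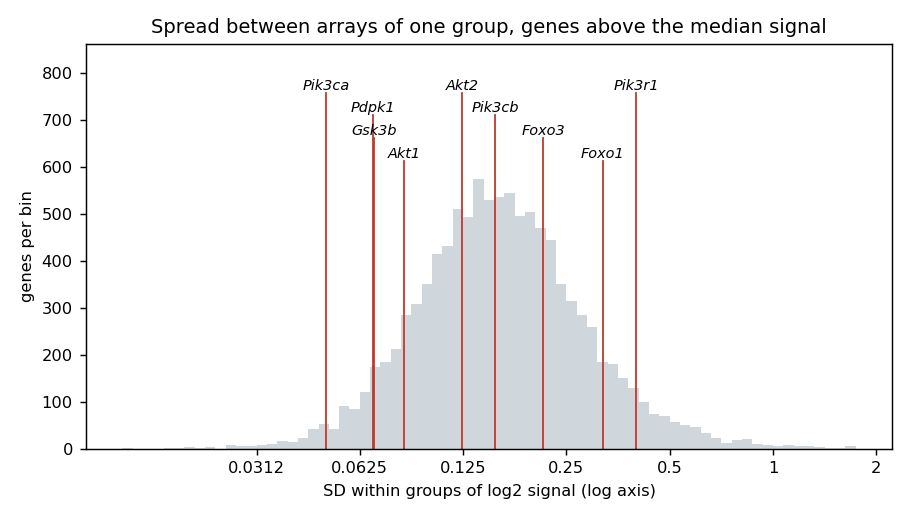
Histogram of the SD within groups (x axis, log scale) of 10408 genes with a mean signal above the median, with red lines at the 9 genes. Pik3ca, Pdpk1, Gsk3b and Akt1 lie at the low end and Foxo1 and Pik3r1 at the high end.

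With the group means removed, Pik3r1 and Foxo1 had a Pearson r of -0.49 over 8 arrays, and Foxo1 and Foxo3 one of 0.72 (Spearman rho 0.81). Pdpk1 and Foxo1 had the highest r of the 36 pairs, 0.80 (rho 0.76), and Pik3cb and Pdpk1 the lowest, -0.65 (rho -0.67). Only 14 of the 36 pairs were above 0, so the 9 genes did not move as one block. These values are descriptions over 8 arrays that share their tissue mixture.

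Pik3r1 ran against the mean of the brown fat markers. Their centred mean (10 of 12 measured) ran from -0.44 to 0.26 in RictoraP2KO arrays and from -0.185 to 0.20 in control arrays. RictoraP2KO replicate 1, the array with the highest Pik3r1, had the lowest brown fat mean. RictoraP2KO replicate 2 and control replicate 1, each the lowest Pik3r1 of its group, had the highest brown fat mean of theirs. Over the 8 arrays Pearson r was -0.84 (exact permutation p = 0.00992) and Spearman rho -0.71 (exact permutation p = 0.0576). With group means removed r was -0.96 and rho -0.98, and without RictoraP2KO replicates 1 and 2, the arrays farthest from the median on the brown fat scale, r was -0.59. The relation did not pass adjustment over 117 relations of 9 genes with 13 marker lists (adjusted p = 0.358 for r and 0.67 for rho in the exact permutation test). An r this low was found for 2.75% of the 10408 genes. Of the 10 markers 7 ran against Pik3r1 and Ebf2 ran with it most (r = 0.84), while Prdm16, a regulator of brown fat identity, had r = -0.86. Elovl3, a fatty acid elongase of brown fat, read 6.84 in RictoraP2KO replicate 1 and at least 8.29 elsewhere. With 10.75 in RictoraP2KO replicate 2 it had the widest span of the 10 markers, so it moves their mean most. The relation was not computed without Elovl3. Pik3r1 also ran with the adipocyte markers (13 of 14 measured), at r = 0.78 (exact permutation p = 0.0247, adjusted p = 0.358) and rho 0.64 (exact permutation p = 0.0962). Without RictoraP2KO replicate 1 and control replicate 4 this r was 0.36, and with group means removed 0.81. The part of these marker shifts in the Pik3r1 difference was not tested.

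**Figure D4:**
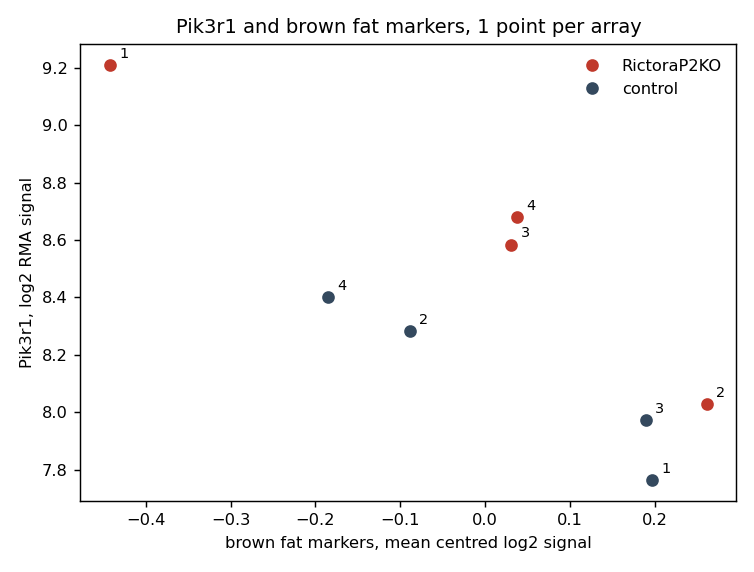
Pik3r1 log2 signal (y axis) against the mean centred log2 signal of 10 brown fat markers (x axis), 1 point per array with its replicate number, RictoraP2KO in red and control in blue. In both groups the array with the highest Pik3r1 signal has the lowest brown fat mean.

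Foxo1 ran with the macrophage markers (12 of 12 measured), whose centred mean ran from -0.27 to 0.43 in RictoraP2KO arrays and from -0.26 to -0.03 in control arrays. Pearson r was 0.79 (exact permutation p = 0.0194), rho 0.88 (exact permutation p = 0.00724), and r without RictoraP2KO replicates 1 and 2 was 0.89. With group means removed r was 0.67 and rho 0.48. With T cell markers (9 of 10 measured) Foxo1 had an r of 0.79 (exact permutation p = 0.0208), with B cell markers one of 0.73 (exact permutation p = 0.0375) and with endothelial markers (10 of 10) one of 0.70 (exact permutation p = 0.0495). Without the 2 arrays farthest from the median of each list, RictoraP2KO replicate 2 and 1 other, these were -0.23, 0.38 and 0.21. With group means removed they were 0.68, 0.65 and 0.72. With skeletal muscle markers Foxo1 had an r of 0.70 (exact permutation p = 0.0977) and a rho of 0.05 (exact permutation p = 0.935). Without RictoraP2KO replicate 2 and control replicate 4 this r was -0.43. With group means removed it was 0.67 and rho 0.405. Only 1 of the 9 T cell markers and 4 of the 10 B cell markers had a mean above the median of all probe sets (3.77). The uncentred T cell list mean lay between 2.94 and 3.53, so this relation rests on dim signals. Pik3ca had an r of -0.76 with the T cell markers (exact permutation p = 0.0141). With the B cell markers it was -0.73 (exact permutation p = 0.0171). Without the 2 arrays farthest from the median of each list these were -0.73 and -0.87. With group means removed they were -0.68 and -0.65. Foxo3 also ran with the T cell markers (r = 0.75, exact permutation p = 0.0303). Both Pik3ca and Pik3cb ran against the endothelial markers (r = -0.71 each, exact permutation p = 0.0465 and 0.0473). Pdpk1 had the smallest p of all with the smooth muscle markers (8 of 8), at r = 0.78 (exact permutation p = 0.00538) and rho 0.90 (exact permutation p = 0.00456); r was 0.68 without control replicates 2 and 3. Akt2 ran against the smooth muscle markers (r = -0.77, exact permutation p = 0.0306). Akt1 ran against the Schwann cell markers (4 of 8 measured) at r = -0.78 (exact permutation p = 0.0291). Of the 117 relations 0 passed adjustment for r or for rho (exact permutation test, lowest adjusted p = 0.358 and 0.381). Before adjustment 14 had a p under 0.05 for r and 9 for rho. The share of such relations among all genes was not counted, so these counts cannot be called high or low.

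By the rule of the highest Pearson r over 8 arrays with group means removed, the gene most like Pik3r1 was Dock4, an activator of the GTPase Rac (r = 0.988, rho = 1), and the gene most like Akt2 was Iqcc (0.981). For Foxo1 it was Zfp646 (0.963), for Foxo3 the potassium channel gene Kcnj8 (0.952), for Akt1 Zfp251 (0.995) and for Pdpk1 Arsa, which encodes arylsulfatase A (0.982). For Pik3ca it was Mtrex, an RNA helicase of the nuclear exosome (0.984), for Pik3cb the mitochondrial histidyl-tRNA synthetase gene Hars2 (0.963) and for Gsk3b Prickle1 (0.969). Each was picked from 10407 genes over 8 arrays, so no test was made, and none of the 9 was the nearest gene of another.

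Other genes of the pathway were read from 6 lists, and 103 of their 117 genes were measured. With limma, 0 of 103 had an adjusted p under 0.05 (lowest 0.649), and 8 had an unadjusted p under 0.05, 4 higher and 4 lower. That is 7.77%, near the 6.48% of all genes. In 2 genes, 1.94%, the groups did not overlap, against 3.57% of all genes. The single genes below therefore did not pass.

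Among 13 other PI3K subunits and binders, 7 differences lay above 0 and the median was 0.0050. Pik3ap1, an adaptor that brings PI3K to receptors of immune cells, read 5.14, 5.21, 4.87 and 5.11 in RictoraP2KO arrays, against 4.77, 4.79, 4.71 and 4.88 in controls. Only RictoraP2KO replicate 3 lay within the controls, and the difference was 0.30 (SE 0.082, limma adjusted p = 0.649, unadjusted p = 0.00605). All 12 macrophage markers (median 0.31), all 10 B cell markers (median 0.28) and all 9 T cell markers (median 0.205) also lay above 0. Most of the B cell and T cell markers had a mean below the median of all probe sets. The part of these markers in the Pik3ap1 difference was not tested. Pik3ip1, an inhibitor of the catalytic subunit, differed by -0.51 (SE 0.266), with values from 4.32 to 5.12 in RictoraP2KO arrays and from 4.65 to 5.84 in controls. Pik3cg, the catalytic subunit of leukocytes, differed by 0.23 (SE 0.132).

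For 16 measured phosphatases that undo the lipid signal or dephosphorylate Akt, 6 differences lay above 0 and the median was -0.03. Inpp4b, a phosphatase of a later lipid in the chain, differed by 0.29 (SE 0.115) and Synj2, an inositol phosphatase of membrane traffic, by -0.26 (SE 0.106). The Synj2 groups did not overlap, at 4.45, 4.30, 4.46 and 4.33 in RictoraP2KO arrays against 4.95, 4.50, 4.64 and 4.48 in controls. Inpp5e, a phosphatase of primary cilia, differed by -0.11. Of 18 measured related kinases and Akt regulators 11 lay above 0 (median 0.02) and 0 had an unadjusted p under 0.05 in limma. Phlda3, which competes with Akt for membrane lipid, differed by -0.23, Prkcb by 0.24 and Trib3, a pseudokinase that binds Akt and rises under stress, by 0.54 (SE 0.411). Trib3 read 5.47, 7.30, 5.37 and 5.22 in RictoraP2KO arrays, with replicate 2 far above the rest, against 5.08 to 5.41 in controls.

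Akt substrates had differences of either sign, 10 of 17 above 0 with a median of 0.01. Pde3b, the phosphodiesterase through which insulin restrains lipolysis, read 10.34, 10.26, 10.41 and 10.46 in RictoraP2KO arrays, against 10.06, 10.15, 10.26 and 10.20 in controls. The groups met only at 10.26, and the difference was 0.20 (SE 0.069, limma adjusted p = 0.651, unadjusted p = 0.0175). Tsc1, which restrains mTOR complex 1 together with the Akt substrate Tsc2, differed by -0.27 (SE 0.096), and the RNA-binding protein gene Zfp36l1 by 0.29 (SE 0.121). Casp9, named after its value was seen because it is the last of the 8 genes, differed by -0.24 (SE 0.103).

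Among 21 measured FOXO paralogs and regulators 10 lay above 0 (median -0.02). Sirt2, a deacetylase that acts on FOXO1 in fat cells, read 8.68, 8.79, 8.85 and 8.83 in RictoraP2KO arrays, against 9.03, 8.91, 8.97 and 8.96 in controls. All RictoraP2KO arrays lay below all controls, and the difference was -0.18 (SE 0.060, limma adjusted p = 0.651, unadjusted p = 0.0168). Sirt3, the mitochondrial deacetylase, differed by -0.26 (SE 0.119) and Prmt1, which methylates FOXO1, by -0.20 (SE 0.114). Of 19 measured partners and substrates of GSK3 7 lay above 0 (median -0.03), 0 had an unadjusted p under 0.05 in limma, and the smallest p-values belonged to Dvl3 (-0.20), Nfatc1 (-0.14) and Axin1 (-0.09).

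**Figure D5:**
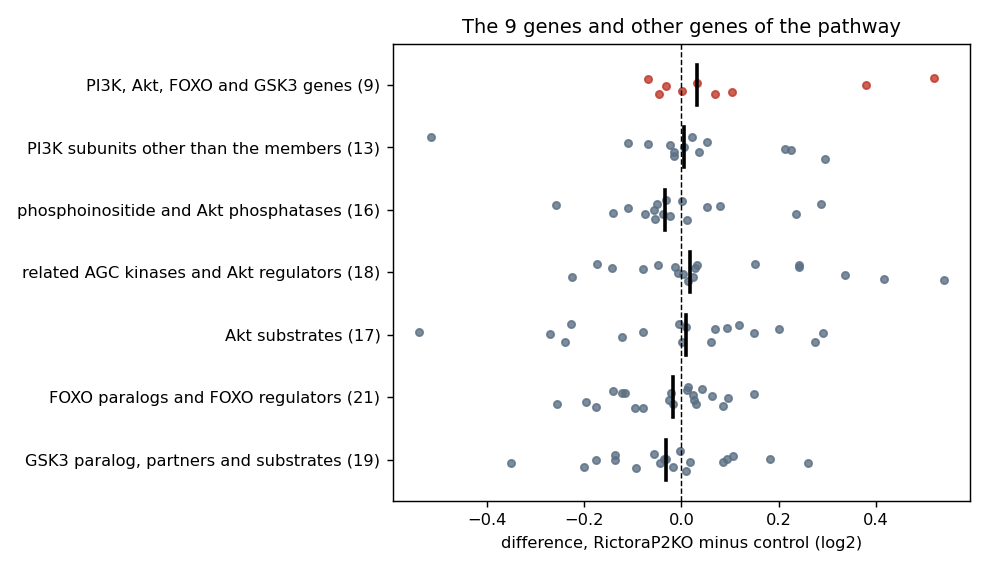
Differences (x axis, RictoraP2KO minus control, log2) of the 9 genes (red) and of the measured genes of 6 pathway lists (grey-blue), 1 point per gene, with the number of genes in brackets and a black bar at each median. The medians lie between -0.03 and 0.03, and Pik3r1 and Foxo1 lie at 0.52 and 0.38.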

How the data were processed

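Per the submitters' processing notes, the authors made the deposited log2 values with RMA (background correction, quantile normalisation, summarisation) in Affymetrix Power Tools 1.10.2 from 5 µg of total RNA per array; no genome build is given in the sources used here. The table holds 28371 probe sets, of which 21158 have 1 symbol, for 18782 genes. Correlations between arrays lay between 0.989 and 0.995. Depth does not apply to arrays, and their number limits the precision. Each probe set was fitted with limma 3.58.1 in R 4.3.3 (lmFit, eBayes, two-sided, no covariate, no filter), with Benjamini-Hochberg adjustment over all 28371 and a threshold of 0.05. The fit was tested on simulated data. Ratios between isoforms were compared by an exact permutation test over 70 assignments of labels. List means per array are means of the log2 value minus each gene's mean over 8 arrays. Other pathway genes were named as the 3 with the smallest unadjusted p in each list plus any past the adjusted threshold. The genes and lists were chosen with earlier results of these data known. The labels do not say whether shared replicate numbers pair the samples. Deviations of same-numbered arrays correlated at -0.15, -0.03, 0.03 and 0.09. Such low values cannot show that no pairing was made, since each array's own tissue mixture enters its deviations. Alternatives were dim probe sets left out, other normalisation, other variance models, array weights, the replicate block, single arrays and the 3 arrays of mixed tissue signal left out, and the mean over probe sets. Sequences are from RefSeq, GRCm38.p6.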

Additional observations from a re-analysis of the deposited data

Results flagged for a closer look

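In 4 of 66 groups of 4 arrays examined, 1 array lay far from the other 3; chance does this in about 5% of groups. Pdpk1 stood at 8.37 in RictoraP2KO replicate 2, with the other 3 between 8.21 and 8.23. Akt1 stood at 8.06 in control replicate 3, with the others between 7.87 and 7.89. Gsk3b stood at 7.96 in RictoraP2KO replicate 3, with the others between 7.88 and 7.89. Trib3 stood at 7.30 in RictoraP2KO replicate 2, with the others between 5.22 and 5.47. Of the 4, 2 are in RictoraP2KO replicate 2, the array with skeletal muscle and B cell signal.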

How the results depend on the processing

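Under every alternative run, 0 of the 9 genes and, where counted, 0 of the other pathway genes had an adjusted p under 0.05. With 1 array left out in turn the count at an unadjusted p under 0.05 ran from 0 to 1, where 5.12% to 8.32% of all genes have one, and the count without overlap from 0 to 2 (Pik3ca and Foxo1 without RictoraP2KO replicate 3), where 5.93% to 8.49% of all genes do not overlap. Without the 3 arrays of mixed signal 1 gene had an unadjusted p under 0.05 (Pik3r1), as did 4.38% of genes, and 2 did not overlap (Pik3r1 and Akt1), as did 19.2% of genes. With limma-trend and with array weights the count at an unadjusted p under 0.05 was 1 each (Pik3r1), against 6.19% and 6.5% of genes. Signs turned for values near 0: with 1 array left out, Pik3cb ran from -0.0721 to 0.0586, Akt2 from -0.0825 to 0.0242, Pdpk1 from -0.0043 to 0.0517, and Pik3ca minus Pik3cb from -0.106 to 0.0231; without the 3 arrays Pdpk1 was -0.0183 and Foxo3 -0.0475. The other differences without the 3 arrays were 0.13 for Pik3cb, 0.14 for Akt1, -0.0017 for Akt2, -0.01 for Gsk3b and -0.05 for Pik3ca. Pik3r1 stayed between 0.33 and 0.72 and Foxo1 between 0.23 and 0.56 with 1 array left out. Foxo3 ran from 0.0091 (without RictoraP2KO replicate 4) to 0.20 (without RictoraP2KO replicate 3). Of the ratios, Akt1 minus Akt2 ran from 0.04 (without RictoraP2KO replicate 4) to 0.18 (without control replicate 3), Foxo1 minus Foxo3 from 0.18 (without RictoraP2KO replicate 2) to 0.36, Pik3r1 minus Pik3ca from 0.37 to 0.76 and Pik3r1 minus Pik3cb from 0.29 to 0.69, the lowest of the last pair both without RictoraP2KO replicate 1. With the replicate block, Pik3r1 kept its difference of 0.52 (limma adjusted p = 0.848) and no call changed. For the ratios, 3 against 2 arrays allow no p below 0.1 and the paired test none below 0.125, so those settings cannot show a call. The causes were not tested.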
